A study of Homo sapiens with 2 samples.

Results

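The genes described here are 49 genes of the ATF4 stress response and of the unfolded protein response of the endoplasmic reticulum (ER). They were chosen by name as known members of both programmes, with earlier results of these data known. They were read from microarray probe sets annotated to exactly 1 gene, and where a gene had several, the brightest on average over both arrays was used and the others served as a check. Of the 49 genes, 47 had such a probe set and all 47 were detected, out of 13221 detected genes and 19775 genes with a probe set of their own. A gene counted as detected where 1 or both arrays gave it a signal no lower than the median of all probe sets on that array. GPT2 and SYVN1 were not analysed here. Of the 47 genes, 46 reached the median in both arrays, and the exception was ALDH1L2. The genes were taken in 3 blocks: 23 genes of the ATF4 arm (transcription factors and signalling, amino acid and one-carbon enzymes, amino acid transporters), 18 genes of the ER arm (chaperones and folding enzymes, degradation), and 8 sensors and regulators.

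The study asked which genes respond when the zinc finger protein ZNF300 is overexpressed in A549, a human non-small cell lung cancer line. A549 cells carrying ZNF300 on the LV5 lentiviral vector (A549-ZNF300) were set against A549 cells carrying the LV5 control vector (A549-LV5, called A549-ZNF300-NC in the study). Total RNA of each was hybridised to 1 Affymetrix Human Genome array, so 2 arrays were made and each condition has 1. Both lines were transduced and grown in conventional culture, and the labels name no drug or ER stressor. The study states that its lentiviral vectors carried GFP and a puromycin resistance for selection. Whether puromycin was present before RNA was taken, and whether either line was a pool or a clone, is not given in the sources used here. With 1 array per condition there is no replicate error and no test, and each difference below compares these 2 arrays. All ratios are log2 differences, A549-ZNF300 minus A549-LV5, so that a negative ratio means a lower signal in A549-ZNF300.

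ATF4 is a transcription factor whose mRNA is translated preferentially when kinases phosphorylate the initiation factor eIF2, which happens under amino acid shortage, haem shortage, viral infection and ER stress. It then drives genes for amino acid uptake and synthesis, together with signalling genes such as DDIT3, which encodes the pro-apoptotic factor CHOP. The unfolded protein response is started by the ER membrane sensors PERK, IRE1 and ATF6, of which PERK feeds the ATF4 arm, while ATF6 and the IRE1 product XBP1 drive ER chaperones and the machinery that removes misfolded proteins. Arrays measure the mRNA only, so neither phosphorylation, nor translation of ATF4, nor splicing of XBP1 was measured.

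ZNF300 itself had a log2 signal of 4.16 in A549-LV5 and 8.91 in A549-ZNF300, a ratio of 4.75, or 2.77 when the A549-LV5 signal is raised to the array median of 6.14. Before any result, the epithelial label of the line was checked against its markers. All 5 epithelial markers were higher in A549-ZNF300, and their log2 summed signal was 13.65 in A549-LV5 and 16.18 in A549-ZNF300. Keratin 19 (KRT19) was called absent in A549-LV5 at 2.29 and reached 11.08 in A549-ZNF300, and keratin 7 (KRT7) stood at 9.46 and 14.38. Of the 5 fibroblast markers 1 was above the median in A549-LV5 (COL1A1, at 7.90, and 10.45 in A549-ZNF300) and 3 were in A549-ZNF300, where COL3A1 and LUM both stood at 6.30, with summed signals of 8.40 and 10.66. Of the leukocyte markers with a probe set, 1 of 2 was above the median in each array, with summed signals of 6.82 and 6.48, and of the endothelial markers 1 of 3, with 7.31 and 7.36. The part of these marker differences in the results below was not tested. With 1 array per condition, an effect of ZNF300 cannot be told apart from any other difference between the cells on the 2 arrays, and whether both came from the same A549 stock could not be settled from these files, which holds for every ratio below. The study states that it checked the identity of its cell lines by profiling short tandem repeats, but does not link that check to these arrays. In bulk RNA, fewer cells of a type and less RNA per cell cannot be told apart.

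Both arms of the stress response were lower in A549-ZNF300. Of the 47 genes, 38 had a lower and 9 a higher signal in A549-ZNF300, and their median ratio was -0.72, against -0.06 over all detected genes. Of all 13221 detected genes, 7054 were lower and 6167 higher. Comparisons with other genes are descriptions only, because the 47 were chosen with earlier results of these data known. At least 2-fold lower were 14 genes and at least 2-fold higher was 1, whereas over all detected genes 15.4% were at least 2-fold lower and 13.6% at least 2-fold higher. The ATF4 arm had 17 lower genes among 22, and 7 (31.8%) passed 2-fold. Its median ratio was -0.75. The ER arm had 16 lower genes among 17, and 7 (41.2%) passed 2-fold. Its median ratio was -0.92. The 8 sensors and regulators held 5 lower and 3 higher genes, none 2-fold apart in either direction, with a median of -0.48.

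**Figure D1:**
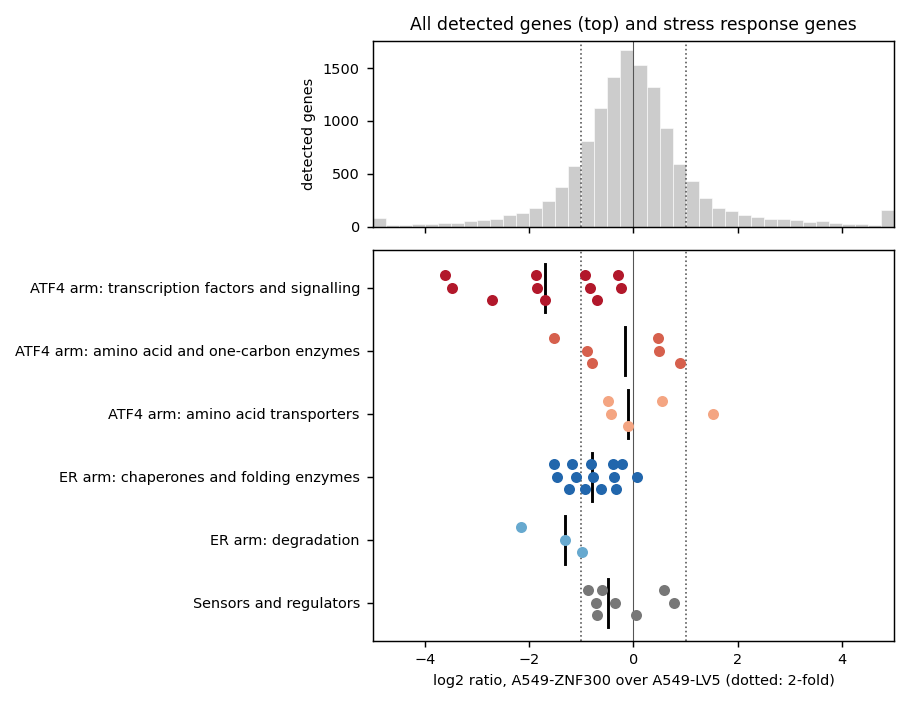
Log2 ratio of A549-ZNF300 over A549-LV5 (x axis) for all 13221 detected genes as a histogram (top; y axis, number of genes; the end bars also hold all genes beyond the axis) and for the 47 stress response genes, 1 point each, in 6 groups (bottom; black line, group median; dotted lines, 2-fold; vertical offsets only separate points). All 11 transcription factor and signalling genes of the ATF4 arm lie left of 0, while the enzymes and transporters lie on both sides.

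The shift was not uniform inside the ATF4 arm. Its 11 transcription factor and signalling genes were all lower, with a median of -1.69, but its 6 measured enzymes were split 3 to 3 with a median of -0.16, and its 5 transporters were 3 lower and 2 higher with a median of -0.10. In the ER arm the 14 chaperones and folding enzymes had a median of -0.79 and the 3 degradation genes a median of -1.31. The difference between the medians of the ATF4 arm and the ER arm was 0.17, a description with no error to set it against. The counts were also taken over bright genes only, at or above the 75th percentile (8.78 in A549-LV5 and 8.72 in A549-ZNF300) in at least 1 array. Of the 45 stress response genes among them, 13 were at least 2-fold lower and 1 at least 2-fold higher, where all 8613 bright genes gave 12.5% and 11.6%. The threshold fell between DNAJB9 just inside it at -1.10 and EDEM1 just outside at -0.98.

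**Figure D2:**
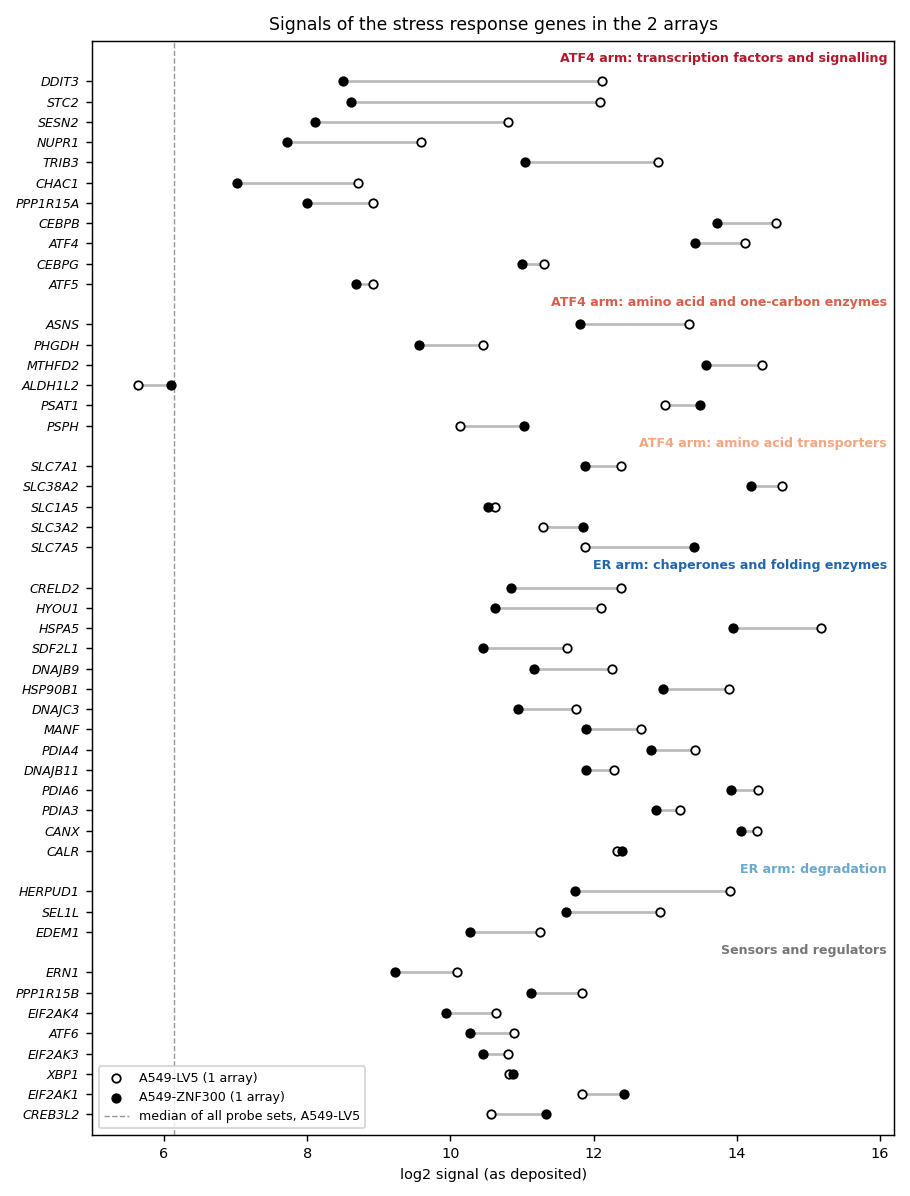
Log2 signal as deposited (x axis) of each of the 47 stress response genes (rows, grouped) in A549-LV5 (open circle, 1 array) and A549-ZNF300 (filled circle, 1 array), joined by a grey line; the dashed line is the median of all probe sets in A549-LV5. Filled circles lie to the left of open circles in 38 rows, and DDIT3 and STC2 have the longest lines.

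The promoters of several genes are printed below, because the DNA elements through which ATF4 and the unfolded protein response act are short and can be read in them. The sequences are RefSeq promoter windows of assembly GRCh38.p14, the 250 bases before the annotated start, written 5′ to 3′ on the strand of the gene, with matches in capitals. Searched on both strands were the C/EBP-ATF response element core TGATGNAA, the ER stress element (CCAAT, 9 bases of any kind, CCACG), its second form (ATTGG, 1 base of any kind, CCACG) and the unfolded protein response element core TGACGTGG. Shown are the 6 genes with the largest absolute ratios among those at least 2-fold apart that hold a match before the start. A match is a description of letters and does not show that a factor binds there.

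ATF4 mRNA was itself lower. Its log2 signal was 14.11 in A549-LV5 and 13.41 in A549-ZNF300, a ratio of -0.70 that stayed inside 2-fold (1.62-fold lower). ATF5, a close relative of ATF4 that is also translated under stress, stood at 8.92 and 8.68, a ratio of -0.24. The other detected probe sets of ATF5 were dim, with ratios of 0.29 and 0.81 that became 0.26 and -0.02 with signals raised to the array medians, so its direction depended on the probe set. CEBPB, a leucine zipper factor that pairs with ATF4, stood at 14.55 and 13.72, a ratio of -0.83. CEBPG, another such partner, stood at 11.30 and 11.01, a ratio of -0.30, with -0.08 from its other probe set. These 4 factors thus differed by less than 2-fold.

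DDIT3 (CHOP), the factor that links prolonged ER stress to cell death, had the lowest ratio of the 47 genes. Its signal was 12.11 in A549-LV5 and 8.49 in A549-ZNF300, a ratio of -3.62, or 12.3-fold lower, and rank 182 from the lowest of 13221 detected genes. TRIB3, a pseudokinase that CHOP and ATF4 induce and that restrains both ATF4 and AKT, stood at 12.89 and 11.04, a ratio of -1.85, with -1.93 from its other probe set. PPP1R15A (GADD34), which brings protein phosphatase to eIF2 and so ends the translational block, stood at 8.91 and 7.99, a ratio of -0.92, with -0.76 from its other probe set. The CHOP gene was therefore further apart than ATF4, and the gene for the eIF2 phosphatase subunit stayed inside 2-fold.

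STC2, which encodes the secreted glycoprotein stanniocalcin, had the next lowest ratio. Its signal was 12.09 in A549-LV5 and 8.62 in A549-ZNF300, a ratio of -3.47 or 11.1-fold lower, and its second probe set gave -4.70. SESN2 (sestrin), a stress-induced leucine sensor that restrains mTORC1, stood at 10.81 and 8.10, a ratio of -2.70, with -2.28 from its second probe set. The detection call of the brighter SESN2 probe set went from present in A549-LV5 to marginal in A549-ZNF300, while the second was called present in both arrays. NUPR1, a small nuclear stress protein, stood at 9.58 and 7.71, a ratio of -1.87. All of these are ATF4 targets that act outside amino acid synthesis.

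CHAC1, an enzyme that breaks down glutathione, is induced by ATF4. Its signal was 8.71 in A549-LV5, called present, and 7.02 in A549-ZNF300, called absent, a ratio of -1.69. Its promoter (chr15:40953221-40953470, plus strand) is shown because it holds a C/EBP-ATF response element in reverse orientation, in capitals, that begins 209 bases before the start.
CHAC1: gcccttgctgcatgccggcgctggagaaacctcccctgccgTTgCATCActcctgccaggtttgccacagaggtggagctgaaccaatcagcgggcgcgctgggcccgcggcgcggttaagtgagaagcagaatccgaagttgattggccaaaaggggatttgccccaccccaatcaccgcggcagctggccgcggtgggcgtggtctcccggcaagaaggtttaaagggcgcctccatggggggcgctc

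Among the amino acid and one-carbon enzymes, ASNS alone was 2-fold apart. ASNS makes asparagine and is the classical target gene of the amino acid response. Its signal was 13.33 in A549-LV5 and 11.81 in A549-ZNF300, a ratio of -1.52, or 2.88-fold lower. The promoter of ASNS (chr7:97872409-97872658, minus strand) is shown for its C/EBP-ATF response element, in capitals, that begins 68 bases before the start.
ASNS: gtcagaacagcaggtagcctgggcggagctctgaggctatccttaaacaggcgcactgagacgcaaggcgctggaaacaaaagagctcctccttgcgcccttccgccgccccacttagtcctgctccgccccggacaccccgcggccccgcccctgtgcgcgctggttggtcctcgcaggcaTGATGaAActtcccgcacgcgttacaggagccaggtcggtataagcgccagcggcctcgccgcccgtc

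The 3 enzymes of serine synthesis did not share a direction. PHGDH, which catalyses the first step, stood at 10.45 in A549-LV5 and 9.56 in A549-ZNF300, a ratio of -0.89. PSAT1, the aminotransferase of the second step, stood at 13.00 and 13.48, a ratio of 0.48, with 0.54 from its other probe set. PSPH, the phosphatase of the last step, stood at 10.13 and 11.03, a ratio of 0.90, and its other detected probe sets gave 1.04 and -0.05. The first step was thus lower and the later ones higher in A549-ZNF300, each by less than 2-fold. MTHFD2, a mitochondrial folate enzyme, stood at 14.36 and 13.57, a ratio of -0.79, with -0.27 from its other probe set. ALDH1L2, another mitochondrial folate enzyme, was dim, at 5.64 and 6.10, a ratio of 0.47 that became -0.04 with signals raised to the array medians. A second detected probe set of ALDH1L2 stood at 2.21, called absent, and 7.17, a ratio of 1.03 with signals raised to the array medians.

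The amino acid transporters held the gene with the highest ratio of the 47. SLC7A5 (LAT1), which exchanges large neutral amino acids such as leucine, stood at 11.89 in A549-LV5 and 13.41 in A549-ZNF300, a ratio of 1.52 or 2.87-fold higher. SLC3A2 (CD98), the heavy chain that carries SLC7A5 to the membrane, stood at 11.30 and 11.85, a ratio of 0.55. Both chains of this transporter were therefore higher, the heavy chain by less than 2-fold. SLC7A1, the main carrier of arginine and lysine, stood at 12.38 and 11.88, a ratio of -0.50, and its other detected probe sets gave -0.81 and -1.36. SLC38A2 (SNAT2), a carrier of small neutral amino acids, stood at 14.64 and 14.20, a ratio of -0.43. SLC1A5 (ASCT2), a glutamine carrier, stood at 10.62 and 10.52, a ratio of -0.10 that turned to 0.01 with arrays centred on their medians. Among the carriers, SLC7A5 was the one that reached 2-fold.

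In the ER lumen, 13 of 14 chaperones and folding enzymes were lower in A549-ZNF300 and 5 were at least 2-fold lower: CRELD2, HYOU1, HSPA5, SDF2L1 and DNAJB9. HSPA5 (BiP) is the main Hsp70 chaperone of the ER and holds the stress sensors inactive. Its signal was 15.18 in A549-LV5 and 13.94 in A549-ZNF300, a ratio of -1.24 or 2.36-fold lower, and its other probe set gave -2.18. The HSPA5 promoter (chr9:125241344-125241593, minus strand) is shown because it holds an ER stress element, whose CCAAT and CCACG parts are in capitals, beginning 66 bases before the start.
HSPA5: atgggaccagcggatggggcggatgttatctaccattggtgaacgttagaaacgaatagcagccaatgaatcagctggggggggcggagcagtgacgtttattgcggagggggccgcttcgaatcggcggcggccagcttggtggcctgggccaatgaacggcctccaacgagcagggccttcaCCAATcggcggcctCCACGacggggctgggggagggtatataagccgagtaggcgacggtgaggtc

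HYOU1 (GRP170), a large Hsp70 relative that exchanges nucleotide on BiP, stood at 12.10 in A549-LV5 and 10.63 in A549-ZNF300, a ratio of -1.47. CRELD2, a secreted ER protein induced by ER stress, stood at 12.38 and 10.85, a ratio of -1.53, the lowest of the 14. The promoters of both are shown because they carry different elements. HYOU1 (chr11:119057206-119057455, minus strand) holds the second form of the ER stress element in reverse orientation at 185 and at 79 bases before the start, and the first of these overlaps an unfolded protein response element core that begins 188 bases before it. CRELD2 (chr22:49918384-49918633, plus strand) holds the ER stress element itself in reverse orientation, beginning 80 bases before the start. Capitals mark the matched letters.
HYOU1: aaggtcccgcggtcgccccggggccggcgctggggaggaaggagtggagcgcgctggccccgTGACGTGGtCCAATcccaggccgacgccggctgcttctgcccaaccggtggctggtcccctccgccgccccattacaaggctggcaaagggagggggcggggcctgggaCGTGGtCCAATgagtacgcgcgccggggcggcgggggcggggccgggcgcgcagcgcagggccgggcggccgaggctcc
CRELD2: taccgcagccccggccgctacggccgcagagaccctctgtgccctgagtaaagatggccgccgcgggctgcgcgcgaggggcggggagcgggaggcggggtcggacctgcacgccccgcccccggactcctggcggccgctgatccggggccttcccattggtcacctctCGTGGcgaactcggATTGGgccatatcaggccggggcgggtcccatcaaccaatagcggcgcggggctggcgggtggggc

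The J-domain partners of BiP among the 47 genes were lower too. DNAJB9 (ERdj4), which represses IRE1, stood at 12.26 in A549-LV5 and 11.16 in A549-ZNF300, a ratio of -1.10, with -1.45 and -0.57 from its other probe sets. DNAJC3 (p58IPK), an inhibitor of PERK, stood at 11.75 and 10.94, a ratio of -0.81. DNAJB11 (ERdj3) stood at 12.28 and 11.89, a ratio of -0.39, and SDF2L1, which works in a complex with it, stood at 11.63 and 10.46, a ratio of -1.17. The J-domain genes among the 47 were therefore all lower. DNAJB9 passed 2-fold but not with arrays centred on their medians (-0.99) or without probe sets ending in _x_at or _s_at (-0.57). Outside the 47, the ER J-domain gene DNAJC1 was higher, at 0.94, and DNAJC10 was lower, at -0.65. Both are named here after their values were seen. HSP90B1 (GRP94), the Hsp90 chaperone of the ER, stood at 13.88 and 12.96, a ratio of -0.92, with -0.90 from its other probe set. MANF, a small protein secreted under ER stress, stood at 12.67 and 11.89, a ratio of -0.78.

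The lectin chaperones and the disulfide isomerases differed less. CALR (calreticulin), the soluble lectin chaperone, stood at 12.33 in A549-LV5 and 12.39 in A549-ZNF300, a ratio of 0.06 that turned to -0.00 after quantile normalization, and its other probe sets gave -0.09 and -0.61. CANX (calnexin), its membrane-bound counterpart, stood at 14.28 and 14.05, a ratio of -0.22, and its other detected probe sets reached down to -0.90. PDIA3 (ERp57), the isomerase that works with both lectins, stood at 13.21 and 12.87, a ratio of -0.34, and its other detected probe sets gave -0.10 and 0.06. These probe sets of the calnexin cycle genes lay within 2-fold. PDIA4 (ERp72), a disulfide isomerase, stood at 13.42 and 12.79, a ratio of -0.62, with -0.14 from its other probe set. PDIA6 (P5), another isomerase that binds BiP, stood at 14.30 and 13.92, a ratio of -0.38, and its 4 probe sets lay between -0.43 and -0.37.

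ER-associated degradation retrieves misfolded proteins for the proteasome, and its 3 measured genes among the 47 were all lower. Further genes of this process, given below, went in both directions. HERPUD1 (Herp), which helps to assemble the ubiquitin ligase complex in the ER membrane, had a signal of 13.90 in A549-LV5 and 11.74 in A549-ZNF300, a ratio of -2.16 or 4.46-fold lower. Its other probe set was lower too, at 7.86 and 2.52, but the second signal was called absent, and with signals raised to the array medians that ratio was -1.83. SEL1L, the scaffold of the same complex, stood at 12.93 and 11.62, a ratio of -1.31, and its 3 other probe sets gave ratios between -0.47 and -0.16. The 2-fold call for SEL1L thus rested on 1 of 4 probe sets, although all 4 were lower. EDEM1, which marks glycoproteins for removal, stood at 11.25 and 10.27, a ratio of -0.98. The HERPUD1 promoter (chr16:56931892-56932141, plus strand) is shown because it was the only one of the 42 promoters found with both a C/EBP-ATF response element (reverse orientation, beginning 176 bases before the start) and an ER stress element of the second form (beginning 117 bases before it), both in capitals.
HERPUD1: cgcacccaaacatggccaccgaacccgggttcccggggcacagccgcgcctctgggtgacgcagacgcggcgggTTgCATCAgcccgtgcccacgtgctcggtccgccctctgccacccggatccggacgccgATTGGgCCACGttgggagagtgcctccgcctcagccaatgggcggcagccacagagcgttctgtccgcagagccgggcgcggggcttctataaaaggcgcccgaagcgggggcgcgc

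The 8 sensors and regulators had a median of -0.48, closer to 0 than the medians of the ATF4 arm (-0.75) and the ER arm (-0.92). It was further from 0 than the medians of the ATF4 arm enzymes (-0.16) and transporters (-0.10). EIF2AK3 (PERK), the ER-resident eIF2 kinase, stood at 10.81 in A549-LV5 and 10.46 in A549-ZNF300, a ratio of -0.35. EIF2AK4 (GCN2), the eIF2 kinase that senses uncharged tRNA, stood at 10.63 and 9.94, a ratio of -0.69. EIF2AK1 (HRI), the haem-regulated eIF2 kinase, stood at 11.84 and 12.42, a ratio of 0.58, with 1.02 from its other probe set. The 3 kinases thus went in both directions. PPP1R15B (CReP), the constitutive partner of the eIF2 phosphatase, stood at 11.84 and 11.12, a ratio of -0.72.

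ERN1 (IRE1), which splices XBP1 mRNA, stood at 10.10 in A549-LV5 and 9.22 in A549-ZNF300, a ratio of -0.87, but its other detected probe sets gave 0.14, from signals near the array medians, and 1.10. ATF6, the sensor that is cut in the Golgi to become a transcription factor, stood at 10.88 and 10.27, a ratio of -0.61, and all 4 of its probe sets were lower. XBP1, the factor that IRE1 activates, stood at 10.82 and 10.87, a ratio of 0.06, whereas its dimmer probe set gave -1.04, or -0.76 with signals raised to the array medians. CREB3L2, a membrane-bound factor related to ATF6, stood at 10.56 and 11.33, a ratio of 0.77, with -0.43 from a dimmer probe set. Of these, ATF6 alone had the same direction in every detected probe set.

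Probe sets of the same gene gave a check inside each array. Of the 47 genes, 28 had at least 2 detected probe sets and 19 had 1. In 21 of the 28 all detected probe sets had the same sign, and in 7 they had both signs. All 7 of the 2-fold genes with at least 2 detected probe sets kept 1 sign. DDIT3, NUPR1, CHAC1, ASNS, SLC7A5, SDF2L1, CRELD2 and HYOU1 rest on 1 detected probe set each.

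**Figure D3:**
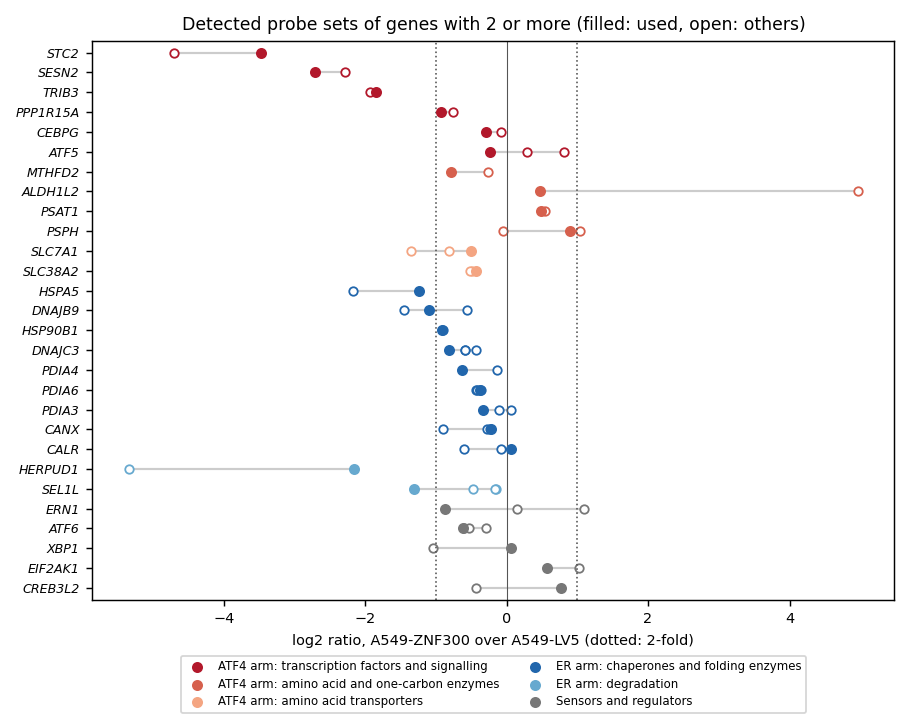
Log2 ratio of A549-ZNF300 over A549-LV5 (x axis) for each detected probe set of the 28 genes with at least 2 of them (rows; filled circle, the probe set used; open circles, the others; dotted lines, 2-fold). STC2, SESN2, TRIB3, HSPA5 and HERPUD1 lie left of -1 with every detected probe set, while the detected probe sets of ATF5, PSPH, PDIA3, CALR, ERN1, XBP1 and CREB3L2 lie on both sides of 0; the far points of HERPUD1 and ALDH1L2 each rest on a signal called absent in 1 array.

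The promoters were then read across all genes. Of the 47 genes, 42 had a RefSeq promoter, 19 of 22 in the ATF4 arm, 16 of 17 in the ER arm and 7 of 8 among the sensors. The C/EBP-ATF response element core was found in 6 genes of the ATF4 arm (CEBPG, CHAC1, ASNS, SLC3A2, SLC7A1 and SLC1A5), in HERPUD1, and in PPP1R15B and CREB3L2, and in 3.62% of all 35116 promoter entries. Genes with this core lay on both sides of 0. The 318 detected genes with this core had a median ratio of -0.07, and 58 were at least 2-fold lower and 57 at least 2-fold higher. Over all detected genes, 15.4% were at least 2-fold lower and 13.6% at least 2-fold higher. The windows of DDIT3, TRIB3, SESN2 and STC2 held none of the 4 motifs, which says only that these letters are not in these windows.

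The ER stress element was rare, in 0.0769% of promoter entries, and 7 of the 15 detected genes with it were stress response genes: HSPA5, HSP90B1, CALR, CANX, CRELD2, PDIA6 and XBP1. Among all 15 carriers 12 had a lower signal in A549-ZNF300 and 4 passed 2-fold, none was at least 2-fold higher, and the median was -0.53. Over all detected genes, 7054 of 13221 were lower, 15.4% were at least 2-fold lower and 13.6% at least 2-fold higher. The 8 carriers outside the 47 genes had a median of -0.63, and 7 of them were lower. The lowest of these 8 was ERO1B, an oxidase that forms disulfide bonds in the ER, at 10.97 and 8.65, a ratio of -2.32. Next was FICD, the enzyme that modifies BiP with AMP, at 8.91 and 7.51, a ratio of -1.40. ALG12, at -0.90, had dim signals of 6.27 and 5.37. SYNPO was the one that was higher, at 9.03 and 9.43, a ratio of 0.40. The second form of the element was in 0.0541% of entries and in HYOU1, HERPUD1 and SDF2L1, and the other 14 detected genes with it had a median of 0.28. The unfolded protein response element core was in 0.729% of entries, and its 127 detected genes had a median of -0.09.

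**Figure D4:**
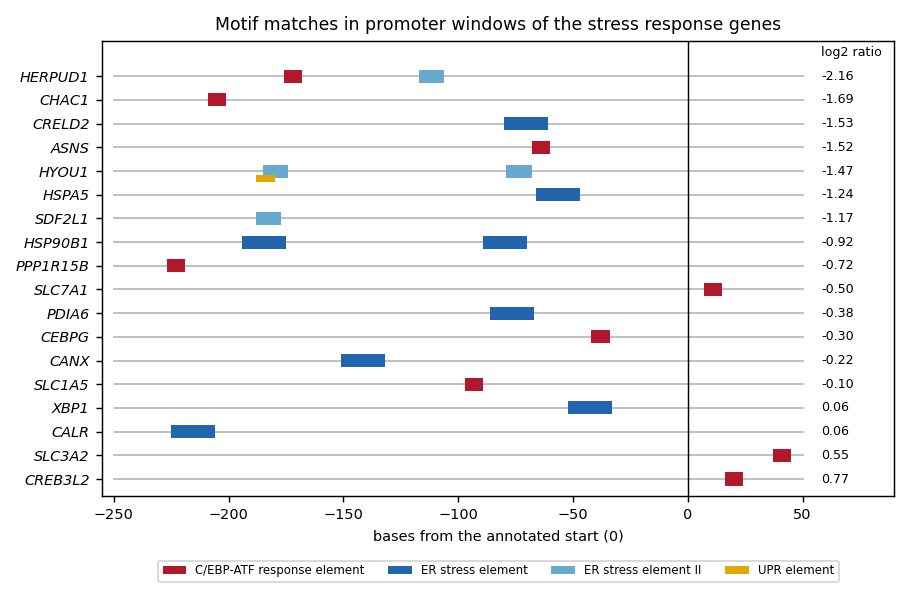
Position of each motif match (coloured boxes; x axis, bases from the annotated start at 0) in the 300-base promoter windows of the stress response genes that hold one (rows, ordered by ratio; 1 window per gene), with the log2 ratio of A549-ZNF300 over A549-LV5 at the right. Matches of the C/EBP-ATF response element occur in genes from -2.16 (HERPUD1) to 0.77 (CREB3L2), and the ER stress element in genes from -1.53 (CRELD2) to 0.06 (CALR).

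Other genes of the same pathways were further from a common direction than the 47. Over 159 detected genes in 7 further lists, 97 were lower and 62 higher, 18 were at least 2-fold lower (11.3%, against 15.4% of all detected genes) and 3 at least 2-fold higher (1.89%, against 13.6%), with a median of -0.17. Over all detected genes, 7054 of 13221 were lower. These lists, too, were chosen with earlier results of these data known. The aminoacyl-tRNA synthetases, which charge tRNAs and of which many are ATF4 targets, had 15 of 17 genes lower and a median of -0.52. Of these, 3 (17.6%, near the 15.4% of all detected genes) were at least 2-fold lower: AARS1 (alanine) at -1.40, YARS1 (tyrosine) at -1.22 and CARS1 (cysteine) at -1.01. The other amino acid response genes had 15 of 24 genes lower and 9 at least 2-fold lower, and their median was -0.46. Those furthest apart were NIBAN1, a stress-induced regulator of translation, at -3.22, the angiogenic factor VEGFA at -2.32 and CBS, an enzyme of cysteine synthesis, at -2.16. CBS has a near-identical copy in the reference genome assembly, and its value is uncertain. The sestrin SESN3, at 1.34, was the 1 gene of this list at least 2-fold higher.

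The eIF2 and eIF2B subunits and their partners, by contrast, were split 9 to 9 with a median of -0.00. OMA1, a mitochondrial protease that relays stress to eIF2, was at -1.25, and the initiation factors EIF2A and EIF2D were at -0.74 and -0.66. The other ER folding and glycosylation genes had 26 of 37 genes lower and a median of -0.17, with ERO1B at -2.32 and its paralogue ERO1A at -1.12. FKBP10, a prolyl isomerase that folds collagen, was the exception in this list, at 2.71 in A549-LV5 (called absent) and 9.60 in A549-ZNF300, a ratio of 6.90, or 3.46 with signals raised to the array medians. The other degradation genes had 17 of 27 lower and a median of -0.22, with the glycoprotein-binding ubiquitin ligase subunits FBXO2 at -2.63 and FBXO6 at -1.08, and the unfoldase VCP at 0.89.

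The genes for protein import into the ER went in both directions. Of 22 translocon and signal peptide genes 13 were higher and the median was 0.20, with SEC61B at 1.01, SEC61A2 at 0.70 and the BiP partner SEC63 at -0.86. The main channel subunit SEC61A1, named here after its values were seen, was lower, at 11.69 in A549-LV5 and 11.27 in A549-ZNF300, a ratio of -0.42. The other stress sensors and processing genes had 6 of 14 lower and a median of 0.08. In that list MAP3K5 (ASK1), a kinase downstream of IRE1, was at -1.74, the pro-apoptotic BCL2L11 (BIM) at 0.81 and MBTPS1, the protease that cuts ATF6, at -0.81.

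**Figure D5:**
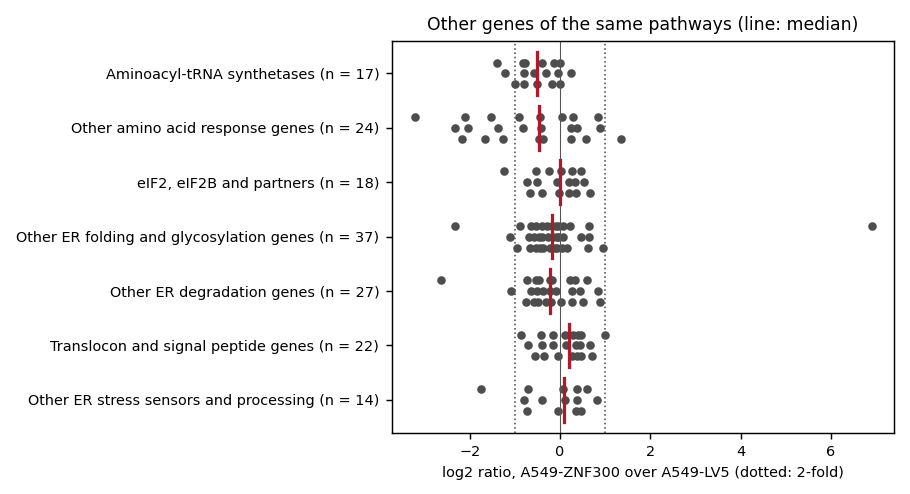
Log2 ratio of A549-ZNF300 over A549-LV5 (x axis) of the detected genes of 7 further lists of the same pathways (rows; grey points, 1 gene each; red line, list median; dotted lines, 2-fold; vertical offsets only separate points). The medians run from -0.52 for the aminoacyl-tRNA synthetases to 0.20 for the translocon genes, and FKBP10 lies apart at 6.90.

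Chromosome position was compared as well. The 47 genes lie on 16 chromosomes, whose other detected genes had median ratios between -0.23 and 0.34. Measured against the median of its own chromosome, 38 of the 47 genes were lower. The median of the ATF4 arm was then -0.65, with 7 genes at least 2-fold lower and 1 higher, and that of the ER arm was -0.86, with 7 lower and 0 higher. The same counts were not computed over all detected genes, so these give no comparison with other genes.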

How the data were processed

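The deposited values are log2 signals of 54675 probe sets on 2 arrays, which the authors normalized beforehand. The submitters' processing notes name MAS5 and affy, without versions, and the study's methods name SCAN/UPC; which made the signals is not stated, so the floor and spread of dim signals are unknown. A second table deposited by the authors holds 8187 probe sets with identical signals, detection calls (present, marginal, absent; used here as other information) and the authors' own fold changes and directions, which were not used. Of the probe sets, 41097 name 1 gene, 1801 several and 11777 none, per the array annotation, and only the first were used. Signals were used as deposited, and no test was possible with 1 array per condition. The named genes were all 47 measured members, and in each further list the 3 with the largest absolute ratio. In the promoter scan, other genes carrying the ER stress element were chosen after their values were seen. Members and lists were chosen with earlier results of these data known. Alternatives covered scaling, the filter on dim probe sets, the choice of probe set and the fold threshold. Ranks and counts came from scripts (Python 3.11.15, pandas 2.3.3, NumPy 2.4.6, matplotlib 3.10.9). The 2-fold calls and the motif search were checked on simulated data with little noise, and the ranks and list counts were not.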

Additional observations from a re-analysis of the deposited data

How the results depend on the processing

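The medians of both arms stayed negative under every alternative, from -0.82 to -0.64 for the ATF4 arm and from -0.97 to -0.78 for the ER arm. The difference between them (0.17) ranged from -0.04 to 0.19. At a 1.5-fold threshold 12 ATF4 arm genes were lower and 2 higher, and 12 ER arm genes were lower; at 3-fold 6 ATF4 arm genes and 1 ER arm gene were lower and 0 ATF4 arm genes higher. Without probe sets ending in _x_at or _s_at, which can match several transcripts, 4 of 14 ATF4 arm genes and 3 of 13 ER arm genes were at least 2-fold lower and 0 ATF4 arm genes higher, since fewer genes are then measured and SLC7A5 has no other probe set. With arrays centred on their medians (a shift of -0.11) and with the median over probe sets, 2 ATF4 arm genes were at least 2-fold higher (PSPH or ALDH1L2 besides SLC7A5). For the counts given so far under these alternatives, the share of all detected genes at the same setting was not computed. They therefore give no comparison with other genes. Of the 15 genes at least 2-fold apart none changed sign, while ATF5, ALDH1L2, SLC1A5, CALR, ERN1, XBP1 and CREB3L2 did under some alternative. DNAJB9 (-0.57 without those probe sets, -0.99 with arrays centred on their medians) and SEL1L (-0.32 with the median over probe sets) were then inside 2-fold. No paired analysis was possible because each condition has 1 array, and for the same reason no array could be left out. Precision is limited by there being 2 arrays in all.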
